A study of Arabidopsis thaliana with 6 samples.

Results

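The jasmonate output genes of leaves examined here are a list of 9 loci: VSP1 (AT5G24780), VSP2 (AT5G24770), TAT3 (AT2G24850), CORI3 (AT4G23600), NATA1 (AT2G39030), BSMT1 (AT3G11480), TPS04 (AT1G61120), TPS03 (AT4G16740) and JR1 (AT3G16470). All 9 were found among the 33555 genes listed, and all 9 were among the 24759 genes that had a value above 0 in at least 1 library and were therefore fitted. They were chosen with the changes between the conditions already known, so their levels and fold changes, and whether they met the calling criteria used for all genes, are given as a description, with no p-value and nothing read from the calls. Transcripts of *Arabidopsis thaliana* rosette leaves were measured by RNA-Seq in 6 libraries, 2 biological replicates for each of 3 conditions. Pre-stressed watered plants (W) had been taken out of soil and kept overnight in humid chambers. Plants of the first dehydration stress (S1) had been left in dry air once for 2 h, and plants of the third (S3) had gone through 2 earlier rounds of air-drying, each followed by 22 h of recovery in water. All plants were grown at 22°C under a photoperiod of 12 h. The labels name no transgene or mutant and give the ecotype as Col-0 and the genotype as WS for every sample. Read length differed between W and both stressed conditions, with longer reads in W, so read length and stress cannot be told apart in comparisons with W. Plants in S3 had also been out of soil for longer than plants in S1 and W.

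Jasmonates are lipid-derived hormones that leaves make when they are wounded or eaten, and also under several abiotic stresses. The conjugate jasmonoyl-isoleucine is bound by the receptor COI1 together with a JAZ repressor, the repressor is degraded, and MYC2 and related bHLH factors are then free to activate their targets. Among the best known targets in rosette leaves are genes of storage and defense proteins, of amino acid metabolism and of volatile compounds, and the genes described here belong to these groups. VSP1 and VSP2 encode vegetative storage proteins and JR1 encodes a jacalin-related lectin. TAT3 is annotated as a tyrosine aminotransferase, CORI3 encodes a cystine lyase first found as a gene induced by coronatine, a bacterial mimic of jasmonoyl-isoleucine, and NATA1 acetylates ornithine. BSMT1 makes methyl salicylate and methyl benzoate, TPS04 makes geranyllinalool, the precursor of the homoterpene TMTT, and TPS03 is a terpene synthase.

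The sequences just upstream of these genes are shown because MYC2 binds G-box elements and their variants in the promoters of jasmonate targets. From the RefSeq annotation of the TAIR10.1 assembly, the 250 bases before the start of each gene were searched on both strands for CACGTG, the G-box, for its variants AACGTG and CACATG, which MYC2 also binds, for GCCGCC, the GCC-box of ERF factors, and for TTGAC, the core of the W-box of WRKY factors. No matches overlapped within 250 bases, while over 1000 bases CACATG and its reverse complement overlap upstream of TPS03. AACGTG was present upstream of VSP1, NATA1 and TPS03, that is in 3 of 9 genes, against 7.61% of the 22788 promoters of the same length. CACATG was present upstream of TAT3 and TPS04, in 2 of 9 genes, against 11.2% of promoters. CACGTG was in 0 of 9 (7.20% of promoters), GCCGCC in 0 of 9 (1.88%) and TTGAC in 7 of 9 (45.2%). Over 1000 bases the counts were 0 of 9 for CACGTG (15.7% of promoters), 4 of 9 for AACGTG (23.9%), 4 of 9 for CACATG (38.1%), 0 of 9 for GCCGCC (8.68%) and 8 of 9 for TTGAC (88.2%). A match describes the letters only and was not linked to any binding.

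The 3 windows with AACGTG are chr5:8509202-8509451 on the minus strand for VSP1, chr2:16297860-16298109 on the plus strand for NATA1 and chr4:9407361-9407610 on the plus strand for TPS03. The window of TPS04 is chr1:22523385-22523634 on the plus strand and that of VSP2 is chr5:8502225-8502474 on the minus strand. VSP2 is shown as the close relative of VSP1 whose window held none of the G-box forms. Each is written 5′ to 3′ on the strand of the gene, ends at the base before the annotated start, and has AACGTG or CACATG, or their reverse complements CACGTT and CATGTG, in capitals.
VSP1: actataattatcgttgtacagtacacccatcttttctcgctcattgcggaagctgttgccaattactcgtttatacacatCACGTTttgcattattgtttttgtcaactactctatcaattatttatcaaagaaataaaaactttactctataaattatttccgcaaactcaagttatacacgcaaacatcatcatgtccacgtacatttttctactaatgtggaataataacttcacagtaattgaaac
VSP2: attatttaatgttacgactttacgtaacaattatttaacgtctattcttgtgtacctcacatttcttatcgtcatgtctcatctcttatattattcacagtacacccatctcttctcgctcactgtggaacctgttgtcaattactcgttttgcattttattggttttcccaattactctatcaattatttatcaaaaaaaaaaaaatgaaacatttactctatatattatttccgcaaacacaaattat
NATA1: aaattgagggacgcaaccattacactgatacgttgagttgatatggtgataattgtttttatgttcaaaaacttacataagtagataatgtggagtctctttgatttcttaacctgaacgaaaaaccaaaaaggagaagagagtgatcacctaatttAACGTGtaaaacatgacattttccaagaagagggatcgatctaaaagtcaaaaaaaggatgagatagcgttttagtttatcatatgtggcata
TPS03: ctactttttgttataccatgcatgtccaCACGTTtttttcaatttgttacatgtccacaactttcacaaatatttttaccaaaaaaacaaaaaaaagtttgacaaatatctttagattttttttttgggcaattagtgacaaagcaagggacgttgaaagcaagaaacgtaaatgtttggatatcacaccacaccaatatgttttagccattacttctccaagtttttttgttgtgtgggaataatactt
TPS04: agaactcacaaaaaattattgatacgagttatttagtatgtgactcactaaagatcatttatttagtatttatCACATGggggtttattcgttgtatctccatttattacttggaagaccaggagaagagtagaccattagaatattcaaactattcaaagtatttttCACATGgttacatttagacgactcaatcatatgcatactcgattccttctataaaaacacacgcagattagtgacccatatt
The match lay 170 bases before the start in VSP1, 93 bases before it in NATA1 and 222 bases before it in TPS03, while TPS04 held CACATG at 177 and at 82 bases before its start.

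Values are in FPKM, fragments scaled to transcript length and to the mapped fragments of the library, computed by the authors with cuffdiff. By the column headers, the S3 values come from a separate cuffdiff run (S3 against S1) from the run of S1 against W, so levels set side by side across S3 and the other conditions rest on 2 runs. FPKM sums lay between 891240 and 974046 per library and between 21139 and 22457 genes per library were above 0. The number of reads behind a single FPKM value was not given, so no counting interval is shown. The study reports fewer mapped reads for each W library than for any S1 or S3 library. The same low FPKM thus rests on fewer reads in W. Among markers of leaf photosynthesis, LHCB2.1, RCA and CA1 were detected in all 6 libraries. Of the 5 leaf markers, these 3 were lower in S1 than in W, beside 12.1% of all genes. Their log2 fold changes were -3.37, -1.55 and -1.10 (limma adjusted p = 0.000225, 0.00806 and 0.0323). All 3 were also lower in S3 than in W (-1.47, -1.07 and -4.17), beside 14.4% of all genes. In S3 relative to S1, LHCB2.1 was higher (1.90), CA1 was lower (-3.07) and RCA did not pass (0.49). The other 2, RBCS1A and LHCB1.3, were listed at 0 in both W libraries and at 1392 to 14866 FPKM in S1 and S3. They were thus called higher in S1 and in S3 than in W (13.7% and 15.3% of all genes). An entry of 0 in W therefore cannot be read as absence of the transcript. RBCS1A was lower in S3 than in S1 (-2.29) and LHCB1.3 did not pass there (-0.73). Of 5 root markers, CASP1, MYB36 and RHD6 were at 0 in every library and the other 2 summed to at most 0.0407 FPKM. The 4 flower markers summed to between 0.729 and 3.51 FPKM, and none passed the test in any comparison. Summed vascular markers were at 59.3 and 50.1 FPKM in W, at 254 and 271 in S1 and at 242 and 281 in S3. Of these 4 markers, 2 were higher in S1 than in W (13.7% of all genes tested). Between S3 and S1, 0 of 4 passed the criteria (5.55% of all genes were higher and 6.71% lower). Still, CESA7 and CESA8 were higher in both S3 libraries than in both S1 libraries (log2 fold changes of 0.70 and 0.92). APL was lower in both (-0.29). Relative to W, 4 of 4 were higher in S3 (15.3%). Summed guard cell markers were at 25.1 and 27.4 FPKM in W, 45.4 and 43.5 FPKM in S1, then 26.6 and 26.2 FPKM in S3, where KAT1 rose and MYB60 fell in S1 relative to W and KAT1 fell in S3 relative to S1. These marker levels moved with some of the comparisons below, and their part in the result was not tested. In whole leaves, fewer cells of a type and less RNA per cell cannot be told apart.

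All 9 genes had higher transcript levels in both S1 libraries than in both W libraries, and lower levels in both S3 libraries than in both S1 libraries. Changes are given as log2 fold changes of FPKM + 1 with standard errors, from 1 limma model of the 3 conditions over all 24759 genes, and this scale understates the change of genes with low values. A gene was called changed when its Benjamini-Hochberg adjusted p was at most 0.05, its absolute log2 fold change at least 1 and its mean FPKM above 0.374, the 25th percentile, in a compared condition. By these criteria 9 of 9 were called higher in S1 than in W, against 13.7% of all genes tested, and 9 of 9 were called lower in S3 than in S1, against 6.71%. Replicates did not overlap in 9 of 9 for the rise in S1 (38.8% of all genes) and in 9 of 9 for the fall in S3 (33.4%). On the log2 scale the median change of the 9 genes was 4.64 (S1/W) and -4.64 (S3/S1), where the median over all genes tested was 0.00 and 0. When only the 14373 genes reaching an average of 5 FPKM in some condition were counted, these medians were 0.09 and 0.01. Both comparisons use the same S1 libraries.

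**Figure D1:**
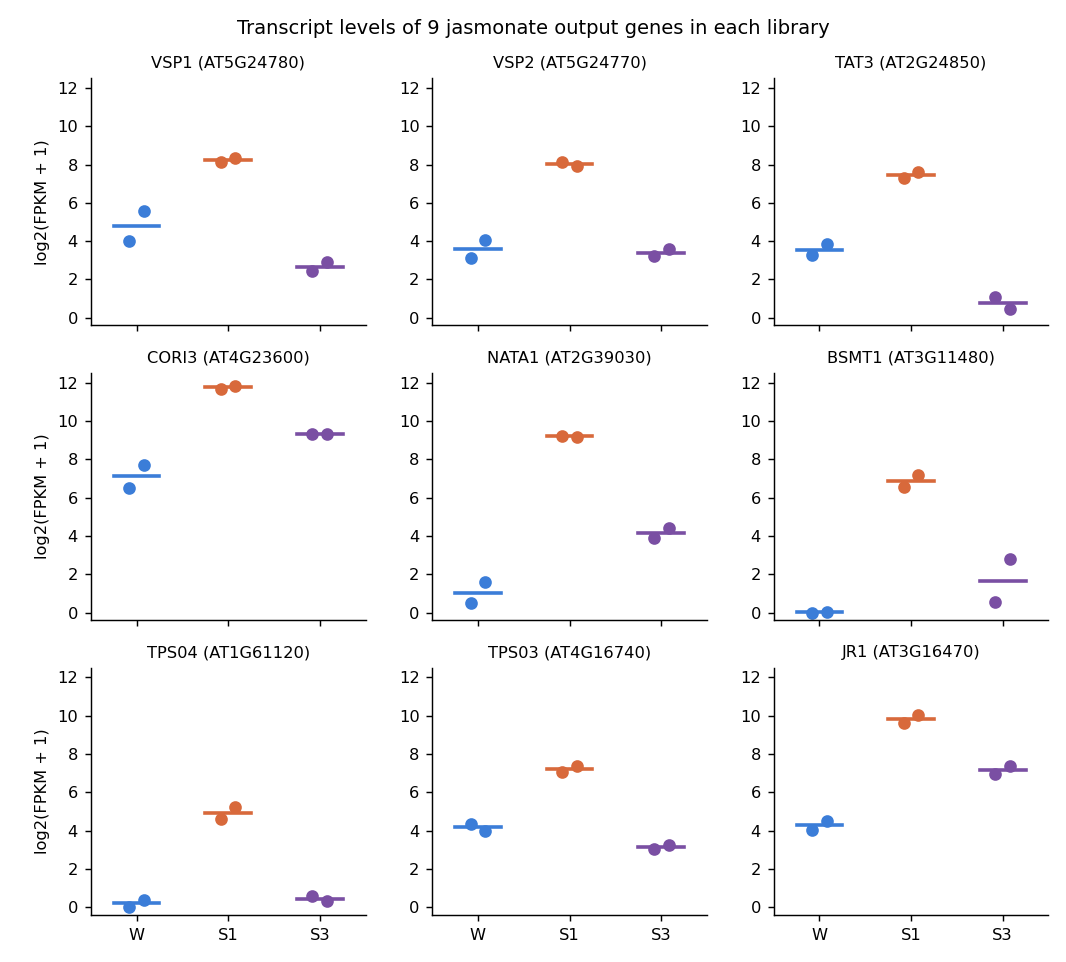
Level of each of the 9 genes, as log2(FPKM + 1), in W, S1 and S3. Points are libraries (2 per condition) and bars are condition means. The S1 points lie above all W and S3 points in every panel, and the S3 points lie above both W points for CORI3, NATA1, BSMT1 and JR1 and below both for VSP1, TAT3 and TPS03. For VSP2 both S3 points lie between the W points, and for TPS04 1 of them does and the other lies above.

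The storage protein genes VSP1 and VSP2 stand near each other on chromosome 5, both on the minus strand, VSP2 from 8500468 to 8502224 and VSP1 from 8507590 to 8509201, with the pseudogene AT5G24775 between them. VSP1 had 15.0 and 47.5 FPKM in W, 284 and 319 FPKM in S1, then 4.46 and 6.45 FPKM in S3. Its W replicates differed 3.17-fold, and both S3 values lay below both W values. For VSP1 this gave log2 fold changes of 3.44 (S1/W), -5.57 (S3/S1) and -2.13 (S3/W), with a standard error of 0.53. VSP2 had 7.59 and 15.5 FPKM in W, 283 and 242 FPKM in S1, then 8.22 and 11.0 FPKM in S3. Here the S3 values lay inside the W range. Log2 fold changes of VSP2 were 4.46 (S1/W), -4.64 (S3/S1) and -0.18 (S3/W), with a standard error of 0.33. The coding sequences of both genes are 88.1% identical over their whole length, yet they shared 0 stretches of 75 bases, so a read of that length that matches 1 of them perfectly does not match the other. The balance between the genes differed between the conditions. The ratio of VSP1 to VSP2 was 1.97 and 3.06 in W, 1.01 and 1.32 in S1, then 0.542 and 0.587 in S3. VSP1 was thus the more abundant transcript in both W libraries and the less abundant one in both S3 libraries, and the replicate ranges of the ratio did not overlap.

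The lectin gene JR1 lies on chromosome 3 from 5595282 to 5599224 on the minus strand. JR1 had 15.2 and 22.0 FPKM in W, 796 and 1060.4 FPKM in S1, then 122 and 163 FPKM in S3. Both S3 values were above both W values, although they stood at 15.3% of the S1 mean. JR1 changed on the log2 scale by 5.57 (S1/W), -2.70 (S3/S1) and 2.88 (S3/W), each with a standard error of 0.25. JR1 overlaps the lectin gene JAL34, which lies on the opposite strand, by 631 bases, and 557 of its 2095 stretches of 75 bases (26.6%) also occur in JAL34. The preparation kit named in the labels does not mark strand, so reads from the shared stretch cannot be told apart between JR1 and JAL34. JAL34 itself had 6.89 and 13.9 FPKM in W, 39.9 and 70.1 FPKM in S1, then 14.1 and 17.7 FPKM in S3. It was below JR1 in every library.

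Of the genes of amino acid metabolism, CORI3 was the most abundant of all 9 in every condition. It lies on chromosome 4 from 12310379 to 12313212 on the plus strand. CORI3 had 90.4 and 209 FPKM in W, 3308 and 3602 FPKM in S1, then 633 and 641 FPKM in S3. In S1 it ranked 31st of all genes by mean FPKM, and in S3, where it had 18.4% of its S1 mean, it still ranked 172nd, against 823rd in W. For CORI3 this gave log2 fold changes of 4.64 (S1/W), -2.44 (S3/S1) and 2.20 (S3/W), with a standard error of 0.40. The call of CORI3 for S3/S1 was lost when any S1 or S3 library was left out (log2 fold changes of -2.50 to -2.37), and its call for S3/W when either S3 library was left out (2.21 without replicate 1 and 2.20 without replicate 2).

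TAT3 lies on chromosome 2 from 10582074 to 10585216 on the minus strand. TAT3 had 8.77 and 13.3 FPKM in W, 155 and 194 FPKM in S1, then 1.13 and 0.391 FPKM in S3. It showed the deepest fall of the 9 genes: the S3 mean was 0.438% of the S1 mean, and both S3 values lay below both W values. Log2 fold changes of TAT3 were 3.88 (S1/W), -6.66 (S3/S1) and -2.78 (S3/W), with a standard error of 0.29. Its S3/S1 value was the fifth lowest of all genes tested. NATA1, also on chromosome 2 from 16298110 to 16299205 on the plus strand, had the highest S1/W value of the 9 on this scale. NATA1 had 0.403 and 1.99 FPKM in W, 599 and 580.1 FPKM in S1, then 13.6 and 20.2 FPKM in S3. The W values were low and differed 4.94-fold, whereas the S1 replicates were close to each other, and both S3 values lay above both W values. NATA1 changed on the log2 scale by 8.17 (S1/W), -5.07 (S3/S1) and 3.10 (S3/W), each with a standard error of 0.39. With a pseudocount of 0.1 its S1/W value was 9.17, below the 9.98 of BSMT1.

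The volatile genes include the lowest of the group in W. BSMT1 lies on chromosome 3 from 3614421 to 3617342 on the plus strand. It overlaps AT3G11490, on the opposite strand, by 79 bases, and 5 of its 1394 stretches of 75 bases occur in another gene. As for JR1, reads from the overlap cannot be told apart. AT3G11490 had 7.43 to 11.4 FPKM over all libraries, above BSMT1 in W and in S3. BSMT1 was listed at 0 in the first W library and had 0.0298 FPKM in the second, 93.8 and 142 FPKM in S1 and 0.476 and 5.85 FPKM in S3. The S3 replicates of BSMT1 differed 12.3-fold, which is the widest gap between stressed replicates among the 9 genes, and both were above both W values. Log2 fold changes of BSMT1 were 6.84 (S1/W), -5.19 (S3/S1) and 1.65 (S3/W), with a standard error of 0.73. With a pseudocount of 0.1 in place of 1 its S3/W value was 4.02, which passed the criteria, as it also did without S3 replicate 1 (2.76), whereas without S3 replicate 2 it was 0.54 and did not pass. The call of BSMT1 for S3/S1 was lost without S1 replicate 1 (-5.49) and without S1 replicate 2 (-4.90).

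TPS04 lies on chromosome 1 from 22523635 to 22528836 on the plus strand. TPS04 had 0.0163 and 0.295 FPKM in W, 23.8 and 37.0 FPKM in S1, then 0.492 and 0.237 FPKM in S3. The S3 and W values overlapped, and TPS04 was the lowest of the 9 genes in S1. TPS04 changed on the log2 scale by 4.74 (S1/W), -4.50 (S3/S1) and 0.24 (S3/W), each with a standard error of 0.26. Its values depended on the pseudocount, and with 0.1 they were 7.12, -6.06 and 1.06. CYP82G1, which converts geranyllinalool into TMTT, had 0.146 and 0.575 FPKM in W, 12.0 and 9.87 FPKM in S1, then 0.365 and 0.0169 FPKM in S3, and was higher in S1 than in W (log2 fold change 3.15, limma adjusted p = 0.000454) and lower in S3 than in S1 (-3.34, limma adjusted p = 0.00118). TPS03 lies on chromosome 4 from 9407611 to 9411140 on the plus strand. TPS03 had 19.7 and 14.8 FPKM in W, 135 and 168 FPKM in S1, then 7.30 and 8.37 FPKM in S3. In W it was the highest of the 3 volatile genes, and in S3 both libraries were below both W libraries. For TPS03 this gave log2 fold changes of 3.07 (S1/W), -4.10 (S3/S1) and -1.04 (S3/W), with a standard error of 0.18.

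The 9 genes differed in where S3 stood relative to W, and the calls given here only describe them. Under the criteria, CORI3, NATA1 and JR1 were higher in S3 than in W (3 of 9, against 15.3% of all genes tested), and VSP1, TAT3 and TPS03 were lower (3 of 9, against 14.4%). VSP2, BSMT1 and TPS04 passed in neither direction. Replicates did not overlap for 4 genes that were higher in S3, BSMT1 included (39.9% of all genes), and for 3 that were lower (35.8%). For S3/W the median log2 fold change was 0.24, beside 0.01 over all genes tested and 0.14 over those that reached 5 FPKM. The share of the S1 gain that was left in S3, computed from means as S3 minus W over S1 minus W, was 14.7% for CORI3, 13.6% for JR1, 2.67% for NATA1, 2.67% for BSMT1 and 0.690% for TPS04. It was negative for the genes whose S3 mean was below the W mean, at -0.782% for VSP2, -6.31% for TAT3, -7.02% for TPS03 and -9.53% for VSP1. By means, S3 was above W in 5 genes and below it in 4. Of the lower S3/W calls, that of TPS03 was lost without W replicate 1 (-0.84) or S3 replicate 1 (-0.95), and that of VSP1 when any S1 or S3 library was left out (-2.35 to -1.90). Without W replicate 1 or 2 the value of VSP1 was -2.93 or -1.33, still called, and its S1/W value was 2.64 or 4.24. With each library left out in turn, the S3/W value ranged from -3.09 to -2.47 for TAT3. It ranged from 2.56 to 3.65 for NATA1 and from 2.62 to 3.13 for JR1.

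**Figure D2:**
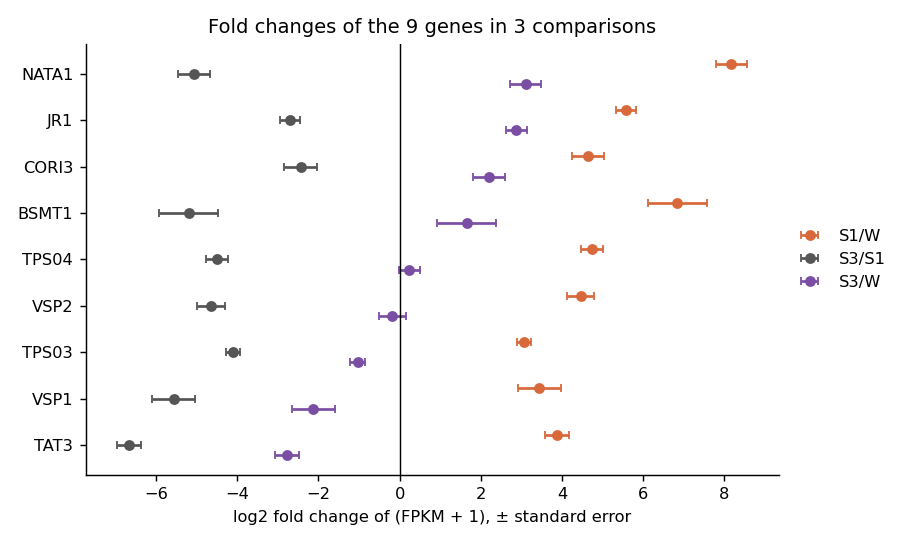
Log2 fold changes of FPKM + 1 (x axis) for each of the 9 genes in the comparisons S1/W, S3/S1 and S3/W, with bars of ± 1 standard error from limma. S1/W values lie between 3.07 and 8.17 and S3/S1 values between -6.66 and -2.44, while S3/W values run from -2.78 for TAT3 to 3.10 for NATA1.

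The order of the genes by level changed between the conditions. In S1 it was CORI3, JR1, NATA1, VSP1, VSP2, TAT3, TPS03, BSMT1 and TPS04, and of the 8 neighbouring pairs only TAT3 with TPS03 and TPS03 with BSMT1 had overlapping replicates. In W the order was CORI3, VSP1, JR1, TPS03, VSP2, TAT3, NATA1, TPS04 and BSMT1, where 5 of 8 pairs overlapped: each gene from VSP1 to VSP2 overlapped the next in line, and so did TPS04 with BSMT1. In S3 it was CORI3, JR1, NATA1, VSP2, TPS03, VSP1, BSMT1, TAT3 and TPS04, with 4 of 8 pairs overlapping. NATA1 was seventh in W but the third in S1 and in S3, and VSP1 was the second in W but sixth in S3. Together the 9 genes summed to 157 and 324 FPKM in W, 5677 and 6345 FPKM in S1, then 790.3 and 857 FPKM in S3. As a share of all FPKM in a library this was 0.0168% and 0.0364% in W, 0.583% and 0.653% in S1 and 0.0842% and 0.0956% in S3. CORI3 alone made up 57.5% and 64.4% of the sum in W, 58.3% and 56.8% in S1 and 80.1% and 74.8% in S3. In W, 8 of the 9 genes had the higher value in replicate 2, while 50.9% of the genes that reached 5 FPKM did. In S1 and in S3, 7 of 9 did, beside 49.1% and 45.5% of those genes.

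The closest relative of each gene by coding sequence, found with BLAST, was read in the same libraries. SUR1, the C-S lyase of glucosinolate synthesis and at 69.8% identity the closest relative of TAT3, had 75.2 and 78.4 FPKM in W, 59.1 and 63.1 FPKM in S1, then 34.8 and 22.9 FPKM in S3. Where TAT3 rose in S1, SUR1 was slightly lower in both S1 libraries than in W and did not pass the criteria (log2 fold change -0.33, limma adjusted p = 0.232). In S3, SUR1 was lower than in S1 (-1.09, limma adjusted p = 0.0146) and than in W (-1.41, limma adjusted p = 0.00275), the same directions as TAT3. AT4G23590, next to CORI3 and 79.4% identical to it, reached 0.569 and 0.517 FPKM in S1, was at 0 and 0.0381 FPKM in S3 and was listed at 0 in W. NAMT1, a nicotinate methyltransferase 77.4% identical to BSMT1, had 0.0302 and 0.0248 FPKM in W, 0.722 and 0.874 FPKM in S1, then 0.381 and 0.437 FPKM in S3. Both of these relatives stayed under 1 FPKM in every library. AT2G39020 (NATA2), next to NATA1 and 76.8% identical, had 28.8 and 36.2 FPKM in W, 136 and 142 FPKM in S1, then 23.8 and 27.4 FPKM in S3. It thus moved in the same directions as NATA1 (log2 fold change 2.07 for S1/W, limma adjusted p = 0.000347, and -2.40 for S3/S1, limma adjusted p = 0.000784), and its W level was far above that of NATA1. TPS02, the neighbour of TPS03 and 67.7% identical to it, was listed at 0 in W and had 10.1 and 19.8 FPKM in S1, then 0.0169 and 0.0312 FPKM in S3. MBP1, a myrosinase-binding protein 67.5% identical to JR1, had 14.7 and 22.0 FPKM in W, 274 and 366 FPKM in S1, then 18.6 and 43.9 FPKM in S3. Its W values were close to those of JR1, and its S1 and S3 values were lower. No coding relative of TPS04 was found under the settings used.

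**Figure D3:**
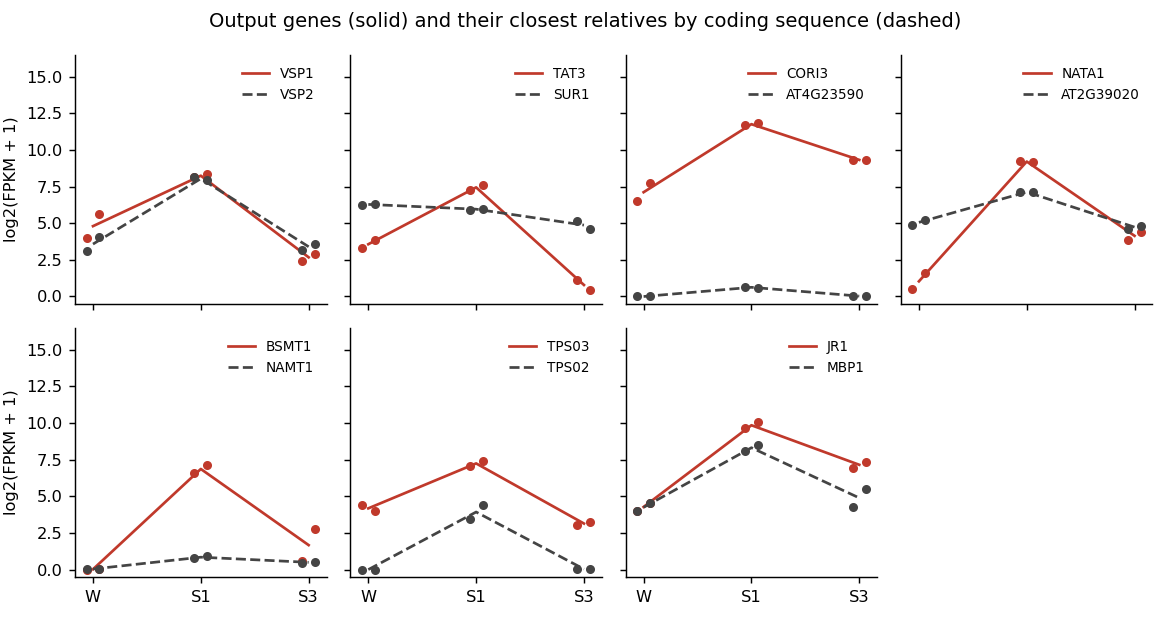
Level as log2(FPKM + 1) of 7 of the output genes (solid, red) and of the closest relative of each by coding sequence (dashed, grey) in W, S1 and S3. Points are libraries and lines join condition means. VSP1 and VSP2, NATA1 and AT2G39020, TPS03 and TPS02, and JR1 and MBP1 peak together in S1, whereas SUR1 has no peak in S1. AT4G23590 and NAMT1 are also highest in S1 but stay below 1 FPKM.

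Further genes of the same families were counted as a list. Of 13 related genes, 10 were detected and TPS11, TPS21 and TPS24 were at 0 in all 6 libraries. Of the 10, 7 rose and 0 fell in S1 relative to W (background 13.7% and 12.1%), and 4 rose and 4 fell in S3 relative to S1 (5.55% and 6.71%). The monoterpene synthase gene TPS10 had 9.01 and 4.49 FPKM in S1, and in S3 it was at 0 and 0.0301. The tyrosine aminotransferase gene TAT7 was higher still in S3, with 4.81 and 5.15 FPKM in W, 44.6 and 44.2 FPKM in S1, then 97.8 and 103 FPKM in S3 (S3/S1 log2 fold change 1.16, limma adjusted p = 0.00110). The jacalin-related genes JAL31, JAL33 and PBP1, named after their values had been seen, were the rest of the 4 that were higher in S3 than in S1. PBP1 had 10.1 and 9.89 FPKM in W, 52.3 and 86.5 FPKM in S1, then 173 and 173 FPKM in S3. Genes next to the members showed several patterns. AT2G24860, beside TAT3, stayed between 44.3 and 55.6 FPKM in all libraries. AT4G23610, beside CORI3, was lower in S1 than in W (log2 fold change -1.51, limma adjusted p = 0.00883). AT3G11470, beside BSMT1, had 6.71 and 5.64 FPKM in W, 14.8 and 14.9 FPKM in S1, then 6.88 and 6.55 FPKM in S3. It was higher in S1 than in W (log2 fold change 1.15, limma adjusted p = 0.00116). In S3 it was lower than in S1 (-1.04, limma adjusted p = 0.00392), the same directions as BSMT1.

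The rest of the pathway was read in 63 further genes from 6 lists. In S1 against W, 42 were higher and 6 lower (background 13.7% and 12.1%), and in S3 against S1, 2 were higher and 43 lower (5.55% and 6.71%). In S3 against W, 19 were higher and 13 lower (15.3% and 14.4%). The median log2 fold change was 3.11, -2.69 and 0.48 in these comparisons, beside 0.00, 0 and 0.01 over all genes. The lists were drawn up with earlier results of these data known.

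Of the 14 biosynthesis genes, 10 rose and 0 fell in S1 relative to W (background 13.7% and 12.1%). In S3 relative to S1, 0 rose and 11 fell (5.55% and 6.71%). In S3 relative to W, 3 rose and 3 fell (15.3% and 14.4%), which is not far from the background. LOX2, the plastid lipoxygenase, had 308 and 369 FPKM in W, 4763 and 5927 FPKM in S1, then 92.9 and 160.1 FPKM in S3. Like VSP1 and TAT3, LOX2 was lower in S3 than in W (log2 fold change -1.46, limma adjusted p = 0.0107). AOS, the allene oxide synthase, had 167 and 189 FPKM in W, 1573 and 1808 FPKM in S1, then 70.9 and 89.1 FPKM in S3. JAR1, which conjugates jasmonate to isoleucine, had 34.3 and 36.9 FPKM in W, 464.5 and 339 FPKM in S1, then 26.1 and 27.8 FPKM in S3. In all 3, both S1 values were above and both S3 values below those in W, but JAR1 did not pass the criteria for S3/W. Among the others, AOC1 changed by 6.02 (S1/W) and -4.87 (S3/S1) on the log2 scale, AOC3 by 5.77 and -3.94, and the lipoxygenase gene LOX3 by 5.31 and -4.57.

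Of 15 genes of perception and repression, 12 rose and 0 fell in S1 relative to W (background 13.7% and 12.1%). In S3, 0 rose and 10 fell relative to S1 (5.55% and 6.71%), and 7 rose and 1 fell relative to W (15.3% and 14.4%). COI1 itself had 10.9 and 10.9 FPKM in W, 11.6 and 11.2 FPKM in S1, then 18.6 and 19.3 FPKM in S3, and passed the criteria for neither S1/W nor S3/S1. JAZ1 had 8.41 and 9.89 FPKM in W, 638 and 625 FPKM in S1, then 79.2 and 108 FPKM in S3. As for CORI3, NATA1 and JR1, its S3 values stayed above W (log2 fold change 3.21, limma adjusted p = 0.000183). JAZ10, JAZ5 and JAZ9 had S1/W log2 fold changes of 6.63, 6.10 and 4.84 and S3/S1 values of -4.62, -4.35 and -3.20. Of 6 bHLH factors, 2 rose and 1 fell in S1 relative to W (13.7% and 12.1%), and 0 rose and 2 fell in S3 relative to S1 (5.55% and 6.71%). MYC2 had 13.2 and 20.1 FPKM in W, 101 and 125 FPKM in S1, then 21.3 and 23.7 FPKM in S3. Its S3/W log2 fold change was 0.44 (limma adjusted p = 0.152). The other gene that rose was JAM1, a repressor of jasmonate responses, with 75.1 and 97.0 FPKM in S1 and 7.52 and 7.95 FPKM in W. MYC4 was lower in S1, with 1.2 and 0.922 FPKM in S1 and 6.5 and 5.98 FPKM in W.

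Of 11 genes that inactivate jasmonates or act on their conjugates, 10 rose and 0 fell in S1 relative to W (background 13.7% and 12.1%). In S3, 0 rose and 10 fell relative to S1 (5.55% and 6.71%), and 6 rose and 0 fell relative to W (15.3% and 14.4%). Their median change in S1 on the log2 scale, 6.41, was the highest of the lists. ST2A, a sulfotransferase of hydroxyjasmonate, had 0.577 and 0.920 FPKM in W, 742 and 515 FPKM in S1, then 51.8 and 80.2 FPKM in S3. The amidohydrolase gene ILL5 was listed at 0 in W and had 272 and 257 FPKM in S1, then 0.396 and 1.10 FPKM in S3, and JOX4, a jasmonate oxidase, had 313 and 235 FPKM in S1, then 0.928 and 3.82 FPKM in S3. Of 9 further wound and jasmonate outputs, 7 rose and 0 fell in S1 relative to W (13.7% and 12.1%). In S3 relative to S1, 1 rose and 8 fell (5.55% and 6.71%). JMT, which makes methyl jasmonate, had 2.1 and 3.17 FPKM in W, 70.8 and 90.6 FPKM in S1, then 0.299 and 0.351 FPKM in S3. HPL, the hydroperoxide lyase of leaf aldehydes, had 3.27 and 5.92 FPKM in W, 91.3 and 94.5 FPKM in S1, then 2.50 and 3.67 FPKM in S3. The ribonuclease gene RNS1 had 0.105 and 0.347 FPKM in W, 690.4 and 438 FPKM in S1, then 90.1 and 120.2 FPKM in S3. It kept the highest S3/W log2 fold change of this list, 6.43 (limma adjusted p = 0.000122). The exception in S3 was ATTI1, a trypsin inhibitor named after its values had been seen, with 283 and 170 FPKM in S3, against 61.9 and 56.2 FPKM in S1.

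The branch of jasmonate responses that depends on ethylene and on ERF factors held more genes that fell than rose in S1. Of its 8 genes, 1 rose and 5 fell in S1 relative to W (background 13.7% and 12.1%), with a median log2 fold change of -1.52. In S3, 1 rose and 2 fell relative to S1 (5.55% and 6.71%), and 1 rose and 5 fell relative to W (15.3% and 14.4%). THI2.1 and CHIB are named here after their values had been seen. The gene that rose in S1 was THI2.1 (1.43), and CHIB rose in both comparisons of S3. CHIB had 0.240 and 0.750 FPKM in W, 1.79 and 2.86 FPKM in S1, then 44.1 and 21.7 FPKM in S3. The defensin gene PDF1.2 had 90.1 and 229 FPKM in W, 18.4 and 6.99 FPKM in S1, then 0.959 and 0.888 FPKM in S3. HEL, a hevein-like protein gene, had 57.8 and 49.7 FPKM in W, 4.94 and 6.78 FPKM in S1, then 8.24 and 5.31 FPKM in S3. PDF1.2b had 18.2 and 13.9 FPKM in W, 0 and 3.01 in S1, and was listed at 0 in both S3 libraries. PDF1.2, PDF1.2b and PDF1.2c, all among the genes that fell in S1, are near-identical, and how their reads were divided is uncertain. The 9 abscisic acid and dehydration genes used for reference were all higher in S1 than in W (background 13.7%). In S3 against S1, 2 were higher and 0 lower (5.55% and 6.71%). For S1/W their median on the log2 scale was 4.68, beside 4.64 for the 9 output genes, and for S3/S1 it was 0.04, where that of the output genes was -4.64. NCED3, the key enzyme of abscisic acid synthesis, had 4.03 and 5.46 FPKM in W, 170.0 and 209 FPKM in S1, then 246 and 308 FPKM in S3, and the 2 that rose further in S3 were RD29B and RAB18.

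**Figure D4:**
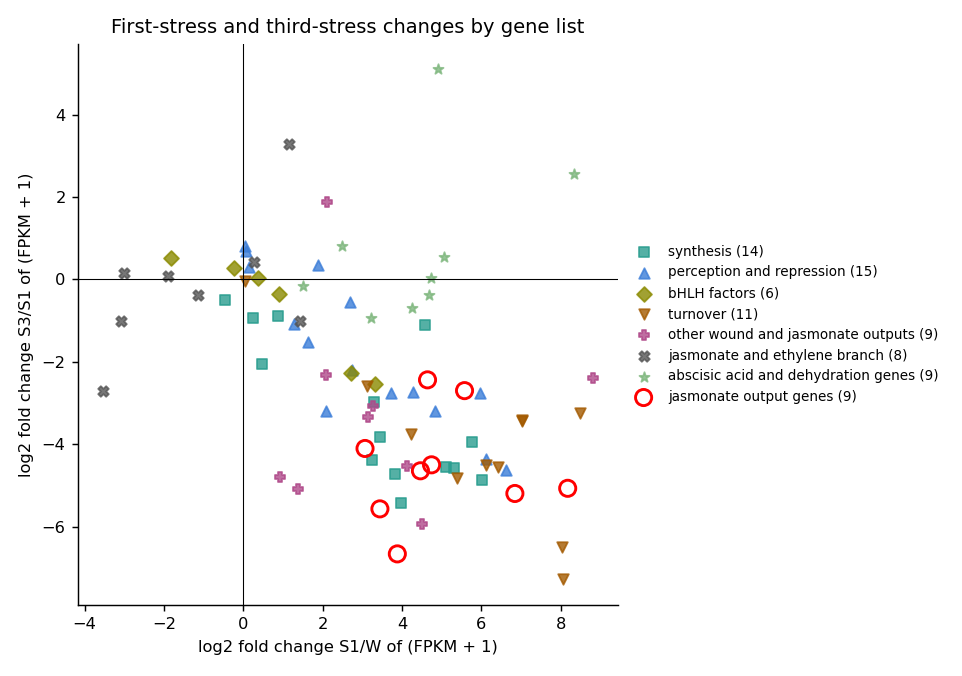
Log2 fold change of FPKM + 1 for S1/W (x axis) against that for S3/S1 (y axis) for the 9 output genes (open red circles), the jasmonate lists and the abscisic acid and dehydration list, with 1 symbol per gene. The 9 output genes lie in the lower right, with S1/W from 3.07 to 8.17 and S3/S1 from -6.66 to -2.44. Both axes use the S1 libraries.

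The 10 other genes with the profile closest to the output genes were picked by the root mean square difference, over the 6 libraries, between log2(FPKM + 1) minus the W mean in a gene and in the median output gene, among the 14364 others that reached an average of 5 FPKM in some condition. They were AT5G28237 (0.249), AT5G52882 (0.257), DAD1 (0.276), COR27 (0.282), AT5G52050 (0.312), ILL6 (0.344), OPR3 (0.347), AT4G10390 (0.357), AT4G11911 (0.383) and AT1G54010 (0.450). OPR3 and ILL6 are in the biosynthesis and turnover lists. OPR3, the reductase of jasmonate synthesis, had 14.4 and 18.5 FPKM in W, 571 and 620 FPKM in S1, then 23.8 and 25.2 FPKM in S3. DAD1, a phospholipase that provides the fatty acid precursor of jasmonate in flowers, was listed at 0 in W and had 29.1 and 19.6 FPKM in S1, then 0.177 and 0.272 FPKM in S3. The output genes were not picked by this distance, so their distances cannot be set against those of the 10. From the median output gene, TPS04 lay at 0.165, VSP2 at 0.359, CORI3 at 1.15, TPS03 at 1.21 and VSP1 at 1.58. JR1 lay at 1.63, BSMT1 at 1.68, TAT3 at 1.80 and NATA1 at 2.64. Ranked by S3/S1 over all genes tested, 7 of the 9 were among the 100 lowest, and JR1 and CORI3 ranked 253rd and 322nd from the bottom.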

How the data were processed

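The authors sequenced poly(A) RNA of rosette leaves and mapped reads to TAIR10 with tophat and bowtie. They deposited cuffdiff FPKM values per gene and replicate. Mapped reads are reported per library, fewest in W, but read counts per gene are not, so the reads behind each value are not given. The submitters' processing notes list CASAVA 1.8.2, TopHat and Cuffdiff. The values were used without further normalization. Genes above 0 in at least 1 of 6 libraries (24759) were fitted with limma 3.58.1 (R 4.3.3) after taking log2(FPKM + 1) (condition as the only term, variance trend), with 3 residual degrees of freedom to which moderation added 2.07, and Benjamini-Hochberg adjustment over all of them. The calling criteria follow the study's methods, with limma in place of cuffdiff, which needs the reads. The script was tested on simulated data. Methods state that replicates came from independent biological samples.

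Members and gene lists were chosen with earlier results of these data known. Named genes were the members, MYC2, COI1, JAR1, JAZ1, LOX2, AOS and CYP82G1, up to 3 genes per list with the largest S1/W change among those called without overlap, chromosomal neighbours, closest relatives and the 10 nearest profiles. Loci were joined to the TAIR10.1 RefSeq annotation (32815 of 33555 genes and 9 of 9 members found), from which upstream sequences were read, and relatives were found with BLAST+ 2.17.0, by coding sequence instead of protein. Python 3.11, pandas 2.3.3, numpy 2.4.6 and matplotlib 3.10.9 were used elsewhere. Alternatives were a pseudocount of 0.1, a minimum mean of 1 FPKM, median-of-ratios factors, scaling to the same sum, 4 libraries only, the replicate number as a block, no fold criterion, no variance trend, and each library left out.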

Additional observations from a re-analysis of the deposited data

How the results depend on the processing

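Under the 13 alternatives that give fold changes, 333 of 351 values of single output genes kept their direction and side of the threshold, 14 lost the call, 2 gained it and 2 changed sign. Many of the 351 could differ only in the call. The 4-library fits, replicate block, missing variance trend, minimum mean and leaving out a library of the uncompared condition do not alter the fold change. Every lost call came with a library left out. The sign changes were both of VSP2 for S3/W, -0.18 with all libraries, which was 0.01 without S3 replicate 1 and 0.29 without W replicate 2, and whose range with each library left out was -0.65 to 0.29. With a pseudocount of 0.1 the median log2 fold change of the 9 genes was -5.14 (S3/S1) and 1.06 (S3/W), and 7 genes were called for S3/W. The added call was that of BSMT1 (4.02, against 1.65 with a pseudocount of 1). These 2 medians are the values of NATA1 (S3/S1) and TPS04 (S3/W), and why they moved was not tested. With each library left out in turn, the medians ranged from 4.04 (without W replicate 1) to 4.94 (S1/W), from -4.83 to -4.45 (S3/S1) and from 0.07 to 0.42 (S3/W), and 9, 7 to 9 and 4 to 6 genes were called. The library that is then alone in its condition is assumed to vary like the others. Of the 63 other jasmonate genes, 48 (S1/W), 45 (S3/S1) and 32 (S3/W) were called, and under the alternatives between 45 and 52, 38 and 53, and 27 and 46. Deviations of same-numbered replicates correlated at 0.17 between W and S1, 0.02 between W and S3 and -0.01 between S1 and S3. With 2 replicates per condition, this cannot show whether replicates were paired by number. With the replicate number as a block, 9, 9 and 6 output genes and 49, 44 and 32 other jasmonate genes were called.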
